A study of Mus musculus with 24 samples.

Results

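The 10 genes described here are stem and progenitor genes of blood-forming cells: the surface marker Cd34, the transcription factors Myb, Sox4, Hlf and Ikzf2, the chromatin protein Hmga2, the pseudokinase Trib2 and the secreted factors Angpt1, Gas6 and Hgf. They are 10 of 45319 gene rows in the deposited counts and were picked by name, with their change over the time course known, so their differences from 0 h are given without p-values, and nothing is read from how many of them the fits called against 0 h. Their RNA was followed in mouse Lys-GFP-ER-HoxA9 cells of strain C57Bl/6, a line named for a lysozyme-GFP reporter and for HoxA9 joined to an estrogen receptor part. Its growth medium held Stem Cell Factor and 0.5 uM beta-estradiol. One group was treated with R07, known only by its code, for 12, 36, 72 or 120 h, with 1 library at each time. The other was taken out of estradiol and sampled at 0, 4, 8, 12, 24, 36, 48, 72, 96 and 120 h, with 2 libraries, A and B, at each time. Every library, R07 included, carries the same protocol line on culture without estradiol, and whether estradiol was present with R07 is not given in the sources used here. Nothing in the labels says that libraries of 1 time came from separate cultures, so the p-values below measure the spread between libraries, which may be technical.

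An estrogen receptor fusion of HoxA9 is active while its ligand is present, and HoxA9 holds myeloid progenitors in an immature, dividing state; in this kind of system removal of estradiol lets the cells mature. Myb, Hlf and Sox4 are transcription factors of immature blood cells, and Trib2 promotes the breakdown of the differentiation factor C/EBP alpha. Angpt1, Gas6 and Hgf are ligands of the receptor kinases Tie2 (gene Tek), of Tyro3, Axl and Mertk, and of Met.

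The 24 libraries held 36.7 M to 49.6 M gene counts each, with a median of 43.7 M. Levels are given as CPM, read counts brought to one common library size after TMM scaling, and fitted differences are log2 values ± SE from edgeR's quasi-likelihood test with Benjamini-Hochberg adjustment over all genes tested, with genes called below an adjusted p of 0.05. Of 6 haematopoietic and myeloid markers all had reads, but Lyz2, the gene a lysozyme reporter is named for, reached at most 0.664 CPM. Summed over 5 macrophage markers, levels were 16.8 to 105 CPM in R07 libraries, and in withdrawal libraries 6.70 to 630 CPM through 72 h, 1479 to 2190.5 CPM at 96 h and 4349 to 4454 CPM at 120 h. Summed stromal markers were 20.2 to 47.1 CPM in R07 libraries and 4.99 to 16.6 CPM in withdrawal libraries through 72 h, where 4 of the 8 genes had no read in any library; in both groups Pdgfrb gave most of it. Summed T and NK cell markers stayed at or below 0.621 CPM in every library. In bulk RNA, fewer cells that carry a transcript and less of it per cell cannot be told apart.

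At 0 h the level per kilobase of exon, the scale on which genes can be compared, was highest for Cd34 at 379 CPM per kb, then Myb at 109, Angpt1 at 69.1, Hlf at 66.0, Hmga2 at 44.4, Gas6 at 41.7, Hgf at 38.7 and Sox4 at 34.9. Trib2 at 5.01 and Ikzf2 at 3.51 CPM per kb were the lowest. All 10 genes had reads enough to enter every fit. Within withdrawal, 5 members had their highest mean at 0 h, 3 at 4 h (Cd34, Hmga2 and Gas6), 1 at 12 h (Ikzf2) and 1 at 96 h (Hgf). Their lowest mean was at 120 h for 5 members, at 72 h for 3 (Hmga2, Trib2 and Angpt1), at 48 h for Gas6 and at 4 h for Hgf. With each gene's 10 times put in order of level, libraries of neighbouring times overlapped in 1 of 9 pairs for Cd34, Sox4, Hlf and Ikzf2, in 2 for Hmga2, Angpt1 and Gas6, in 3 for Myb and Trib2 and in 4 for Hgf.

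**Figure D1:**
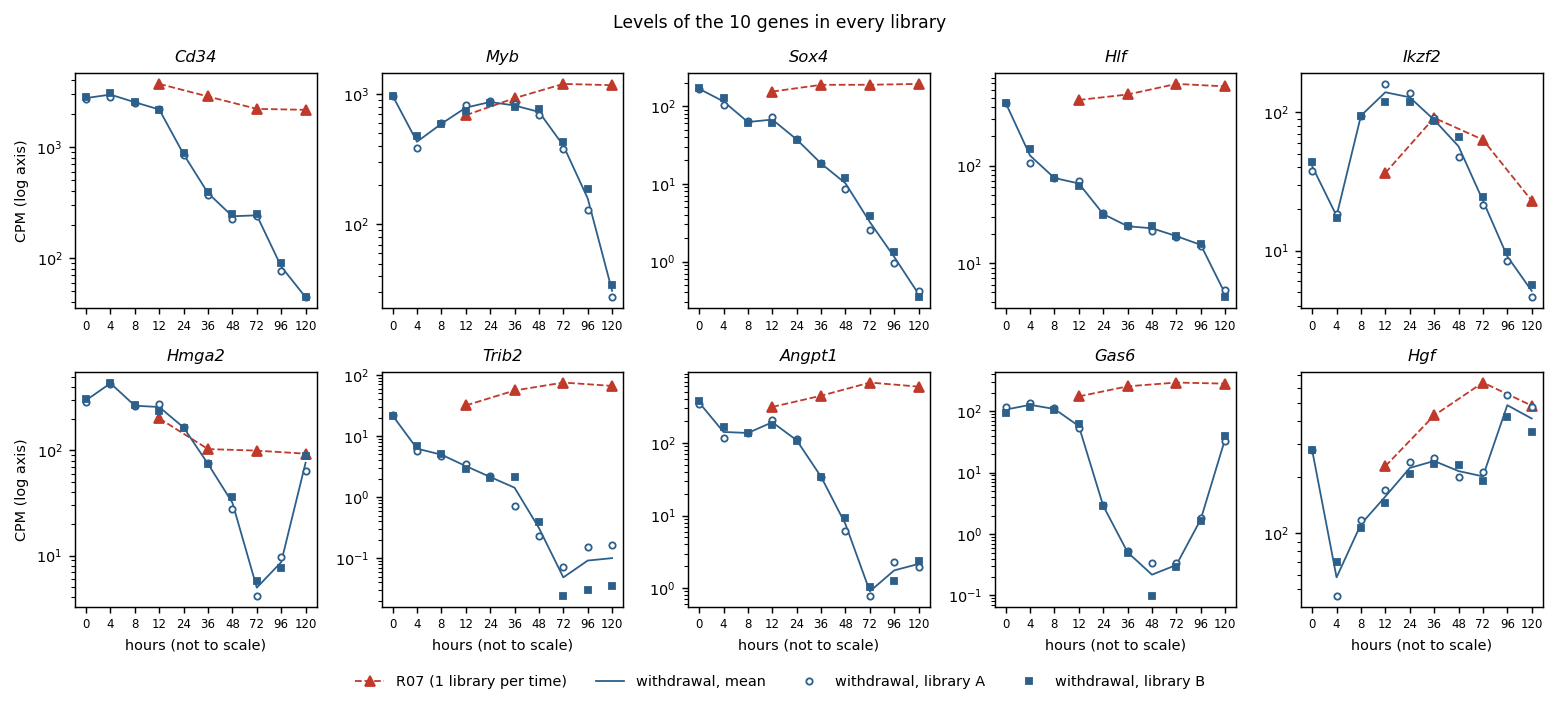
Levels of the 10 genes in CPM (log axis) by hours, with R07 as triangles (1 library per time) and withdrawal libraries A and B as separate symbols with their mean as a line. Sox4, Trib2, Angpt1 and Gas6 fall to under 4 CPM at 72 h of withdrawal, while every R07 library keeps them at 31.7 CPM or more.

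Cd34 (chr1:194938819-194961279, plus strand of mm10), the sialomucin that marks blood progenitors, had 2854 and 3085 CPM at 4 h, against 2718 and 2809.9 CPM at 0 h. It then declined to 844 and 876 CPM at 24 h, to 238 and 247 at 72 h and to 44.1 and 44.5 at 120 h. The libraries at 120 h lay below all others, and only 48 h and 72 h, at means of 238 and 243 CPM, overlapped among neighbours in the order of the times. Cd34 fell between 4 and 24 h (log2 -1.79 ± 0.09, adjusted p = 6.58e-12), between 24 and 72 h (log2 -1.84 ± 0.10, adjusted p = 1.78e-12) and between 72 and 120 h (log2 -2.46 ± 0.10, adjusted p = 2.14e-14). With R07 it had 3706, 2854, 2208 and 2165 CPM at 12, 36, 72 and 120 h, each above both withdrawal libraries of the same time.

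Myb (chr10:21124935-21160984, minus strand) encodes a transcription factor that progenitors of most blood lineages need. Its 2 libraries at 4 h had 386 and 478 CPM, against 975 and 977 CPM at 0 h, and the groups did not overlap. The level came back to 891 and 855 CPM at 24 h, a rise over 4 h (log2 1.01 ± 0.14, adjusted p = 8.88e-06), and stood at 690.1 and 776 CPM at 48 h. It fell from 24 h to 72 h (log2 -1.12 ± 0.14, adjusted p = 8.11e-07) and more steeply after that, to 27.5 and 34.3 CPM at 120 h, against 380.3 and 427 CPM at 72 h (log2 -3.72 ± 0.16, adjusted p = 5.27e-14). With R07, Myb had 691, 934, 1202 and 1175 CPM, in the order 12, 36, 72 and 120 h. The 12 h library lay below both withdrawal libraries of that time, at 833 and 746 CPM, and the later 3 lay above theirs.

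The window from 250 bases before to 50 after the RefSeq start of Myb (GRCm38.p6, chr10:21160935-21161234, minus strand) is shown because Myb recovers after its early dip along with Hgf; capitals mark matches to the MYB core AACNG on either strand.
Myb promoter: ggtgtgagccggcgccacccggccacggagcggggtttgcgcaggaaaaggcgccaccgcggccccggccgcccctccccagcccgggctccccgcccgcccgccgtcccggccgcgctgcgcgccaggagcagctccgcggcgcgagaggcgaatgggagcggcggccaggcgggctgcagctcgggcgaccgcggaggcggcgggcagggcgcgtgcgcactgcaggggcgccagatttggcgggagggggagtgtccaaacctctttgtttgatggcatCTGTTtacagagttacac
Hgf promoter (chr5:16553245-16553544, plus strand): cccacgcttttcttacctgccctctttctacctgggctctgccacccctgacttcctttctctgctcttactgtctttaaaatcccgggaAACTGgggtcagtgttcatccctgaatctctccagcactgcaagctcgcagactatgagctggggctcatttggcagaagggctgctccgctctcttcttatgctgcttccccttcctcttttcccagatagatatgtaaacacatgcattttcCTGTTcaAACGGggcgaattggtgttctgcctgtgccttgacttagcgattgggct
The Myb window held 1 match and the Hgf window 3, in a motif that 80.3% of 32817 RefSeq promoter windows of this length hold. The MEIS core TGACAG, found in 19.2% of windows, was in the Trib2 window alone among the 8 members with a window (Ikzf2 and Angpt1 had none in the table). The HOXA9-TALE motif TGATTTAT and the PAR bZIP motif TTACGTAA of HLF, found in 0.978% and 0.119% of windows, were in none of the 8. All motifs were searched on both strands, and a match of letters is a description only.

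Sox4 and Hlf were both highest at 0 h and lowest at 120 h. Sox4 (chr13:28948919-28953713, minus strand), an SRY-related HMG-box factor of early lymphoid and myeloid cells, had 165 and 169.8 CPM at 0 h, 37.9 and 36.7 at 24 h, 2.53 and 3.91 at 72 h and 0.415 and 0.345 CPM at 120 h. Hlf (chr11:90336536-90390895, minus strand), a PAR bZIP factor of blood stem cells, had 106 and 147 CPM at 4 h, against 444 and 439 CPM at 0 h. It went on to 32.6 and 31.1 CPM at 24 h, to 18.7 and 19.2 at 72 h and to 5.26 and 4.45 at 120 h. Hlf thus lost most of its 0 h level within 4 h, whereas Sox4 still had 115 CPM on average then. Sox4 fell between 4 and 24 h (log2 -1.63 ± 0.15, adjusted p = 2.55e-08), between 24 and 72 h (log2 -3.54 ± 0.18, adjusted p = 1.33e-12) and between 72 and 120 h (log2 -3.07 ± 0.32, adjusted p = 4.18e-08). Hlf fell in the same 3 steps (log2 -2.00 ± 0.12, adjusted p = 6.80e-11; log2 -0.76 ± 0.12, adjusted p = 2.07e-05; log2 -1.96 ± 0.14, adjusted p = 2.12e-10).

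With R07, Hlf had 472, 537, 689.5 and 651 CPM at 12, 36, 72 and 120 h. All 4 values were above both libraries at 0 h, and the ratio to the withdrawal mean of the same time was 7.18 at 12 h and 134 at 120 h. Sox4 had 154, 189, 189 and 194 CPM with R07, where the 0 h libraries had 165 and 169.8 CPM. The R07 library at 12 h lay below both 0 h libraries and the later 3 above both. At 120 h the ratio of R07 to withdrawal was 509.8, over withdrawal libraries of few reads.

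Ikzf2 (chr1:69531214-69687245, minus strand), the Ikaros-family zinc finger Helios, was the one gene of the set with its highest level at 12 h of withdrawal. It had 18.5 and 17.2 CPM at 4 h, against 37.5 and 44.0 CPM at 0 h, then 161 and 119 CPM at 12 h and 138 and 119 CPM at 24 h. It was higher at 24 h than at 4 h (log2 2.84 ± 0.16, adjusted p = 2.03e-11). It fell by 72 h (log2 -2.49 ± 0.16, adjusted p = 4.02e-11), with 21.5 and 24.5 CPM, and by 120 h (log2 -2.18 ± 0.18, adjusted p = 1.29e-09), with 4.59 and 5.65 CPM. With R07 it had 36.5, 91.3, 63.4 and 23.0 CPM, lowest at 120 h and highest at 36 h. R07 lay below both withdrawal libraries at 12 h, where they had 161 and 119 CPM, and above both at the later 3 times.

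Hmga2 (chr10:120361275-120476469, minus strand), an AT-hook protein that bends DNA in fetal and stem cells, is a textbook target of let-7 microRNAs, whose maturation LIN28 proteins block. The sequences below show the letters behind that background, from RefSeq and the GENCODE gene models on GRCm38; capitals mark the seed (bases 2 to 8) and its complement in the 3′ UTR.
mmu-let-7a-5p: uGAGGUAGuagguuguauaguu
mmu-let-7g-5p: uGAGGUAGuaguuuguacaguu
mmu-miR-98-5p: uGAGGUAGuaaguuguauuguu
Hmga2 site 1 (chr10:120364224-120364249, minus strand): ggcgccgacattcaatttCTACCTCa
Hmga2 site 2 (chr10:120362987-120363012, minus strand): aatccccactcctcaataCTACCTCt
Hmga2 site 3 (chr10:120362549-120362574, minus strand): ttcctgatttgcaaggaaCTACCTCc
Hmga2 site 4 (chr10:120361691-120361716, minus strand): tacaatcaaaacacactaCTACCTCt
Only microRNAs named let-7 or miR-98 were searched, with any on 1 chromosome left out, and 10 of these shared this seed. The Hmga2 UTR of 3014 bases held 4 matches to CTACCTC, 1 of them followed by A. A match was in 1878 of 20964 mouse UTRs (8.96%), and 12 of these held at least 4. Lin28b held 4, Lin28a 2, and of the other members only Hlf held any, 1. Mature let-7 is not measured in oligo-dT libraries.

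Hmga2 had 429 and 443 CPM at 4 h, against 292 and 310.0 CPM at 0 h, and 167 and 163 CPM at 24 h. Its lowest values were 4.11 and 5.78 CPM at 72 h, where no other time came as low, and it had 9.67 and 7.63 CPM at 96 h and 63.4 and 89.5 CPM at 120 h. It fell between 4 and 24 h (log2 -1.40 ± 0.15, adjusted p = 1.87e-07) and between 24 and 72 h (log2 -5.07 ± 0.18, adjusted p = 9.64e-15), and it rose between 72 and 120 h (log2 3.94 ± 0.18, adjusted p = 1.04e-13). With R07, Hmga2 had 202, 103, 99.7 and 93.2 CPM, all 4 below both 0 h libraries.

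Among partners, Lin28b, which blocks let-7 maturation, had 27.9 and 29.7 CPM at 0 h, 21.5 and 19.5 at 24 h, 3.04 and 4.94 at 72 h and 0.553 and 0.621 CPM at 120 h. It fell between 24 and 72 h (log2 -2.37 ± 0.20, adjusted p = 2.63e-09) and between 72 and 120 h (log2 -2.77 ± 0.31, adjusted p = 1.45e-07), while Hmga2 rose in the second of these steps. Lin28a rose between 24 and 72 h (log2 0.75 ± 0.11, adjusted p = 8.14e-06) and fell between 72 and 120 h (log2 -1.45 ± 0.12, adjusted p = 1.09e-09). Hmga1, the other AT-hook gene of the family, fell by 0.49 on the log2 scale in that last step (adjusted p = 0.00151 by edgeR).

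**Figure D2:**
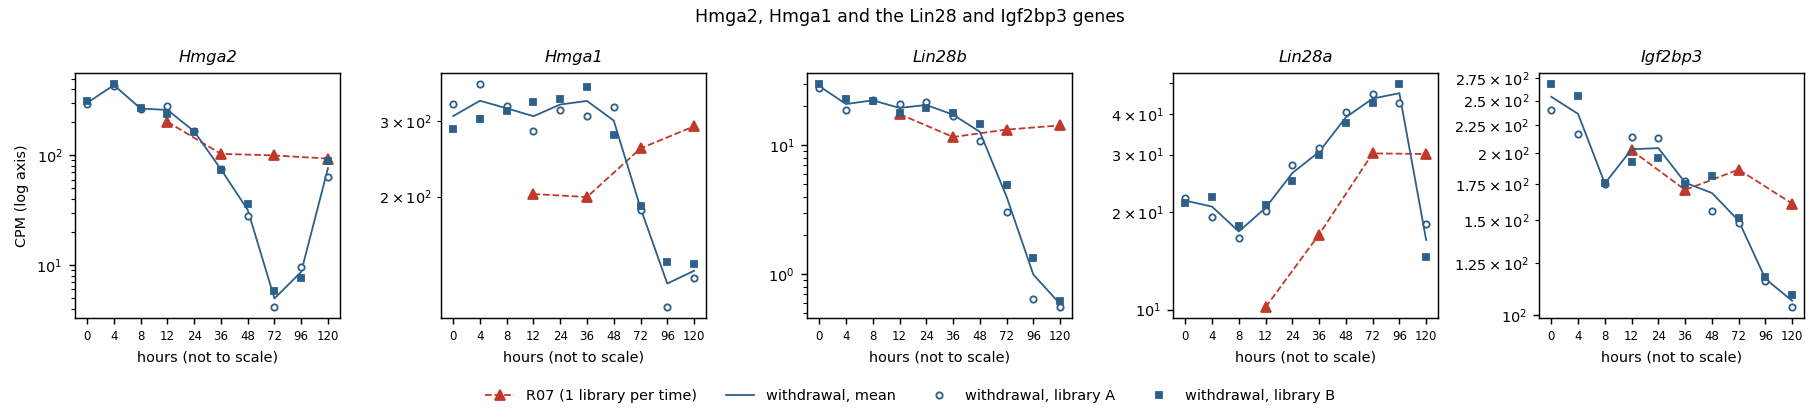
CPM (log axes) by hours for Hmga2, Hmga1, Lin28b, Lin28a and Igf2bp3, with R07 as triangles (1 library per time), withdrawal libraries A and B as separate symbols and the withdrawal mean as a line. Hmga2 is lowest at 72 h of withdrawal and higher at 96 and 120 h, and Lin28b is at its lowest at 120 h.

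Trib2 (chr12:15791727-15816922, minus strand), a pseudokinase that brings the ubiquitin ligase Cop1 to C/EBP alpha, had 5.67 and 6.78 CPM at 4 h, against 21.9 and 21.5 CPM at 0 h. It then had 2.21 and 2.07 CPM at 24 h, 0.721 and 2.13 at 36 h and 0.233 and 0.391 CPM at 48 h. From 72 h it rested on 1 read per time in library B and on 3 to 6 in library A, too few to order those times. It fell between 4 and 24 h (log2 -1.54 ± 0.28, adjusted p = 1.56e-04) and between 24 and 72 h (log2 -5.40 ± 0.61, adjusted p = 1.58e-07); from 72 to 120 h it was not called (log2 1.10 ± 1.21, adjusted p = 0.440), and without 120 h library A the log2 value was -0.45. With R07, Trib2 had 31.7, 55.7, 75.2 and 66.2 CPM, every value above both 0 h libraries. Cop1 itself was lower with R07 than in withdrawal (log2 -0.79 ± 0.15, adjusted p = 0.0102). In withdrawal Cop1 rose between 4 and 24 h (log2 0.39 ± 0.12, adjusted p = 0.0107) and between 24 and 72 h (log2 0.88 ± 0.12, adjusted p = 1.30e-06). For R07 against 0 h it was not called (log2 -0.06 ± 0.20, adjusted p = 0.895). Trib1, a pseudokinase of the same family as Trib2, rose between 72 and 120 h of withdrawal (log2 3.82 ± 0.24, adjusted p = 2.29e-11).

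The 3 secreted factors differed from each other. Angpt1 (chr15:42424723-42676977, minus strand), the activating ligand of Tie2, had 115 and 168 CPM at 4 h, against 340.4 and 379 CPM at 0 h. It had 207 and 178 CPM at 12 h, 113 and 105 at 24 h, 6.05 and 9.20 at 48 h and 0.779 and 1.03 CPM at 72 h. The change between 4 and 24 h was not called (log2 -0.38 ± 0.17, adjusted p = 0.0867), though it was with no filter on low counts (log2 -0.35, adjusted p = 0.00845) and without 4 h library A (log2 -0.63, adjusted p = 0.010); the change between 24 and 72 h was (log2 -6.91 ± 0.26, adjusted p = 1.29e-14), and a small rise between 72 and 120 h as well (log2 1.23 ± 0.33, adjusted p = 0.00287). With R07 it had 313, 446, 678 and 596 CPM.

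Gas6 (chr8:13465374-13494490, minus strand), a vitamin K-dependent ligand, had 135 and 119 CPM at 4 h, against 119 and 93.7 CPM at 0 h, and kept 112 and 106 CPM at 8 h. It was 2.94 and 2.82 CPM at 24 h (log2 -5.47 ± 0.17, adjusted p = 3.81e-15), 0.338 and 0.0979 at 48 h and 0.341 and 0.288 CPM at 72 h, a further fall between 24 and 72 h (log2 -3.20 ± 0.28, adjusted p = 4.98e-09). At 120 h it had 32.3 and 38.8 CPM, a rise over 72 h (log2 6.80 ± 0.23, adjusted p = 2.99e-15). Summed macrophage markers were 4349 to 4454 CPM at 120 h, against at most 630 CPM through 72 h, and their part in the return of Gas6 and Hmga2 was not tested. With R07, Gas6 had 174, 255, 294 and 282 CPM, above both 0 h libraries at every time. Its promoter window, shown because of this loss and return, held 2 matches to the MYB core.
Gas6 promoter (chr8:13494486-13494785, minus strand): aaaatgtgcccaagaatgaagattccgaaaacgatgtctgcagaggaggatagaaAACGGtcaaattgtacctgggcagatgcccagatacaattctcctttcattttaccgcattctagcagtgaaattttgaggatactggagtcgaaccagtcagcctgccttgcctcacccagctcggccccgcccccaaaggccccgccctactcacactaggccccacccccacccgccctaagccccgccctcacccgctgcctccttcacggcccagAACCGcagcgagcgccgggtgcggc

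Hgf (chr5:16553495-16620152, plus strand), the ligand of Met, had 46.1 and 70.0 CPM at 4 h, its lowest time, against 277 and 279 CPM at 0 h. It had 117 and 106 CPM at 8 h, 169.9 and 144 at 12 h and 239 and 207 CPM at 24 h, a rise from 4 to 24 h (log2 1.94 ± 0.18, adjusted p = 2.18e-08). Between 24 and 72 h it was not called (log2 -0.16 ± 0.17, adjusted p = 0.427). It had 549.7 and 418 CPM at 96 h, its highest time, and 472 and 349 CPM at 120 h, against 213 and 189.8 CPM at 72 h (log2 1.02 ± 0.17, adjusted p = 2.34e-05). With R07, Hgf had 228, 426, 639 and 481 CPM; at 120 h the R07 library lay above both withdrawal libraries by a ratio of 1.17 to their mean.

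**Figure D3:**
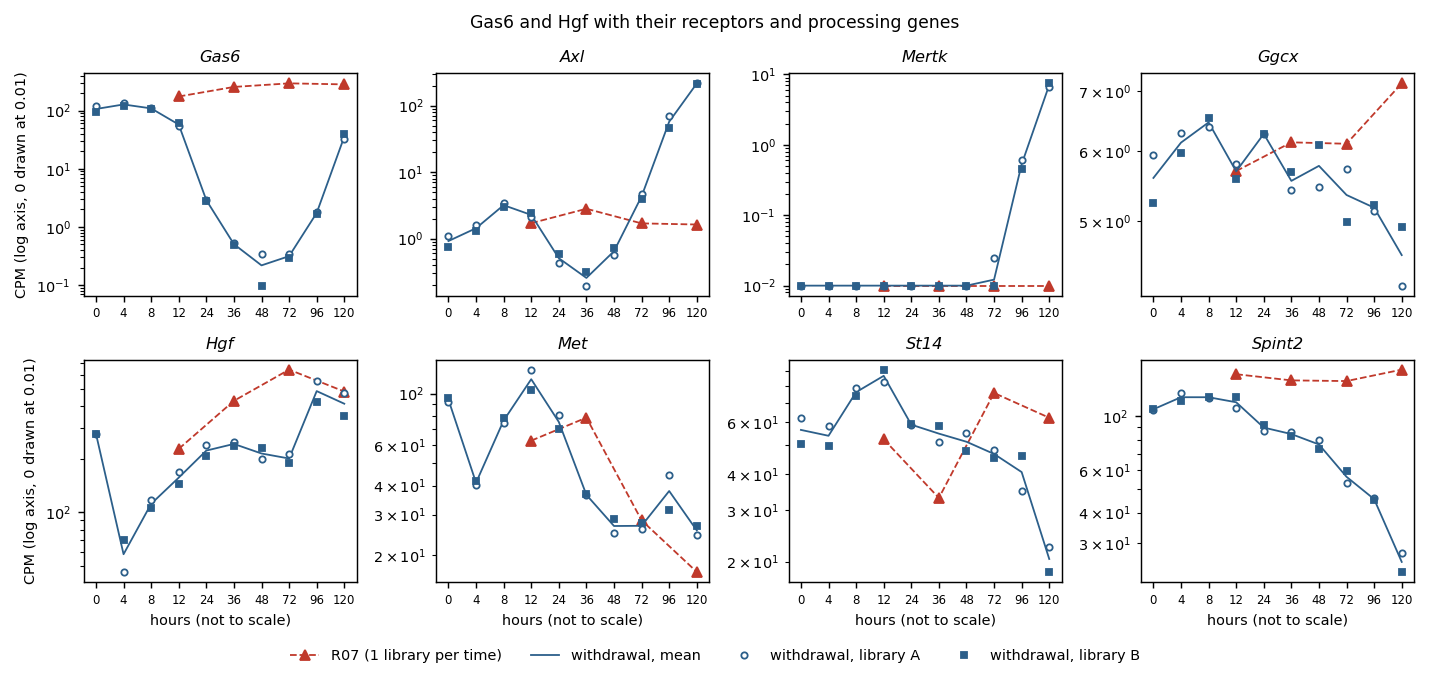
CPM (log axes) by hours for Gas6 and Hgf, their receptor genes Axl, Mertk and Met, and the processing genes Ggcx, St14 and Spint2. R07 is drawn as triangles (1 library per time), withdrawal libraries A and B as separate symbols and the withdrawal mean as a line. Axl and Mertk rise at 96 and 120 h of withdrawal, when Gas6 returns.

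Of 6 receptor genes, Met, Axl and Mertk had reads enough to test: Tek, the Angpt1 receptor gene, and Tie1 stayed at or below 0.0626 CPM in every library, and Tyro3 at or below 0.0277 CPM. Met dipped with Hgf at 4 h, to 40.3 and 42.1 CPM against 92.3 and 95.9 CPM at 0 h (log2 -1.19 ± 0.13, adjusted p = 2.58e-06 by edgeR). It rose between 4 and 24 h (log2 0.87 ± 0.13, adjusted p = 2.02e-05) and fell between 24 and 72 h (log2 -1.50 ± 0.13, adjusted p = 5.12e-09). Axl had 217 and 214 CPM at 120 h, against 4.67 and 3.98 CPM at 72 h (log2 5.63 ± 0.18, adjusted p = 2.65e-15). Mertk had 6.72 and 7.48 CPM at 120 h and no read in any R07 library. Of 13 relatives, enzymes and inhibitors 9 were tested, and with R07 against withdrawal only the protease inhibitor gene Spint2 was called, higher with R07 (log2 1.34 ± 0.30, adjusted p = 0.0178).

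Over all genes, 7.22% were called higher and 4.53% lower at 4 h against 0 h; of the 10 members 1 was higher (Hmga2), 7 were lower and 2 not called. The choice of the genes used this contrast, so nothing is read from that count beside the share of all genes. Between 4 and 24 h 16.3% of genes rose and 19.2% fell; 3 members rose (Myb, Ikzf2 and Hgf), 6 fell and 1 was not called. Between 24 and 72 h 32.2% rose and 30.8% fell; no member rose, 9 fell and Hgf was not called. Between 72 and 120 h 33.4% rose and 32.3% fell; Hmga2, Angpt1, Gas6 and Hgf rose, 5 fell and Trib2 was not called. At 120 h against 0 h 39.6% were higher and 40.3% lower; 1 member was higher (Hgf) and 9 were lower, a count that the choice of the genes had fixed in part and from which nothing is read. Median log2 changes of the members were -1.47, -2.84 and -0.47 in the steps 4 to 24, 24 to 72 and 72 to 120 h, where the medians over all genes were 0.00030, 0.0093 and -0.016. These steps lie within the time course that was known when the genes were picked. The member counts and medians of the steps are therefore a description, and nothing is read from them beside the values for all genes.

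**Figure D4:**
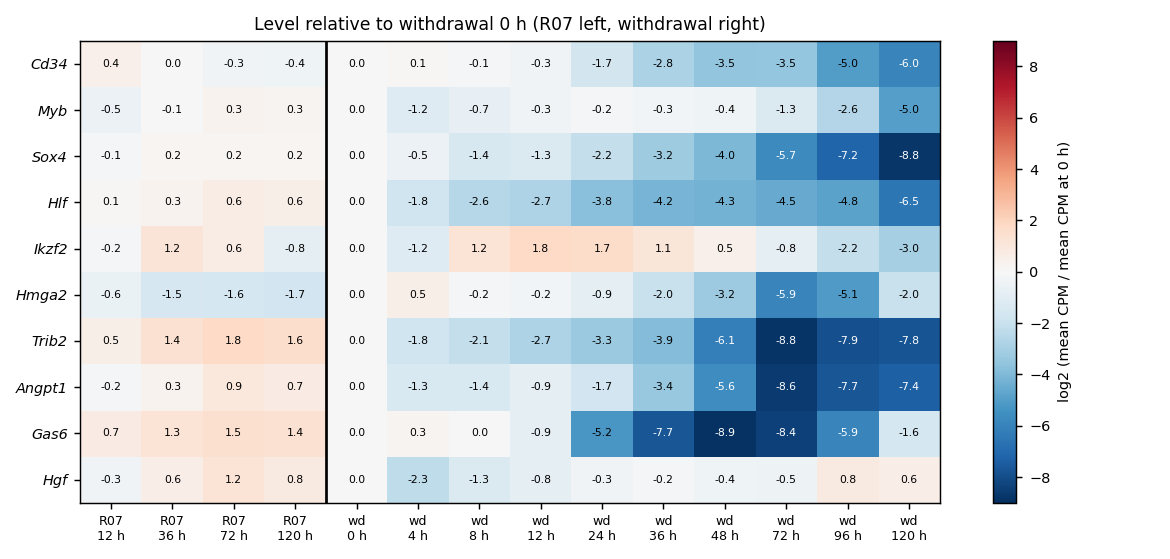
Level of each gene at each later time relative to its mean at 0 h (log2), a description without a test. R07 columns are on the left, each from a single library. Withdrawal columns are on the right, each the mean of 2 libraries. In withdrawal, Hgf stands above its 0 h level at 96 and 120 h, and the 9 other genes lie below theirs at 120 h.

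R07 and withdrawal libraries of the same 4 times were fitted with time as a factor (14511 genes), where 10.5% of genes were called higher with R07 and 6.52% lower. The withdrawal libraries belong to the time course that was known when the genes were picked. The member counts and p-values of R07 against withdrawal are therefore a description. Nothing is read from the counts beside the shares of all genes. Of the members 7 were called higher, none lower and 3 not called. They were Hlf (log2 5.13 ± 0.54, adjusted p = 0.00102), Trib2 (log2 7.38 ± 1.10, adjusted p = 0.00366), Cd34 (log2 3.40 ± 0.60, adjusted p = 0.00719), Sox4 (log2 5.44 ± 1.08, adjusted p = 0.0114), Angpt1 (log2 6.87 ± 1.42, adjusted p = 0.0132), Gas6 (log2 7.21 ± 1.51, adjusted p = 0.0141) and Hgf (log2 0.84 ± 0.21, adjusted p = 0.0263). Hmga2 (log2 1.35 ± 0.72, adjusted p = 0.216), Ikzf2 (log2 0.73 ± 0.53, adjusted p = 0.357) and Myb (log2 1.97 ± 0.84, adjusted p = 0.136) were not called. Without the 72 h R07 library Sox4, Angpt1, Gas6 and Hgf lost the call, with adjusted p from 0.0599 to 0.0804, and Cd34, Hlf and Trib2 kept it. Gas6 also lost it without the 36 h R07 library (adjusted p = 0.0516), Hgf without any of 6 other libraries, and Ikzf2 gained it without the 12 h one (adjusted p = 0.0215). In 1 fit of all 24 libraries, which takes its spread from replicates of 1 time, 9718 genes were called, all 10 members among them. The main fit had called 2469 genes. Markers of other cell types also differed between R07 and withdrawal. Of 3 stromal markers tested Pdgfrb was called higher with R07 and Col1a1 lower, of 4 B cell markers 2 were called higher, Pax5 among them, and of 3 erythroid markers Epor was. Of 4 megakaryocyte markers none was called, but their sum was 17.5 to 125 CPM in R07 libraries, against 14.2 to 44.7 CPM in withdrawal libraries through 72 h, with Itga2b giving 108 CPM of the R07 value at 72 h. Summed B cell markers were 44.6 to 79.2 CPM in R07 libraries. In withdrawal libraries they were 26.3 to 74.5 CPM through 72 h and 83.3 to 89.2 CPM at 120 h, above every R07 library. Pax5 stayed at or below 1.61 CPM with R07. None of the 2 endothelial and 5 macrophage markers tested was called. The part of these markers in the levels of the 10 genes was not tested.

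The difference grew with time for several members. For Cd34 the R07 library stood 1.70 times as high as the withdrawal mean at 12 h and 48.9 times at 120 h, for Sox4 2.29 and 509.8 times, and for Myb 0.875 and 38.1 times. Gas6 went the other way at the end, with 934 times at 72 h and 7.92 times at 120 h, where its withdrawal level had come back. For Hmga2 the ratios were 0.779, 1.38, 20.2 and 1.22 at 12, 36, 72 and 120 h. At 12 h Myb, Ikzf2 and Hmga2 lay below both withdrawal libraries and the other members above. At 36, 72 and 120 h every member lay above, some by little. Ikzf2 at 36 h had 91.3 CPM with R07, against 90.3 and 86.2 CPM. Hgf at 120 h had 481 CPM with R07, against 472 and 349 CPM. The share of all genes was not counted at single times, so nothing is read from these places. At all 4 times 7 members were above, where 10.7% of 15371 genes were, and none below, where 7.35% were. The genes were picked with their course in withdrawal known, so these counts are a description and nothing is read from them.

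**Figure D5:**
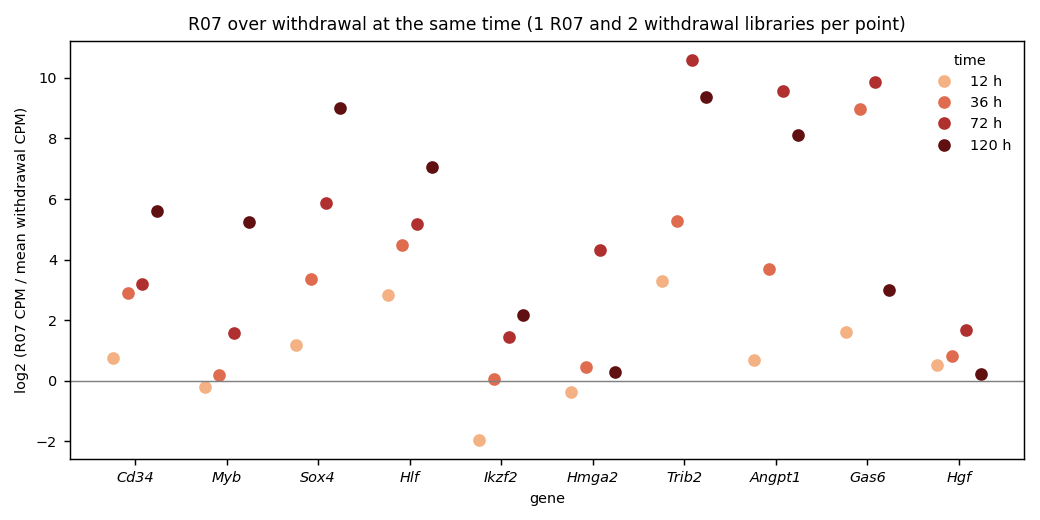
log2 ratio of the R07 library to the mean of 2 withdrawal libraries of the same time, for each gene at 12, 36, 72 and 120 h. Myb, Ikzf2 and Hmga2 lie below 0 at 12 h, and Hmga2 and Hgf come back toward 0 at 120 h.

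Against the 2 libraries at 0 h, with all 4 R07 libraries as 1 group, edgeR called 0% of 13704 genes higher and 0% lower, and no member; 2868 genes had an unadjusted p under 0.05, and DESeq2 called 1326. All 4 R07 libraries lay above both 0 h libraries for Hlf, Trib2 and Gas6, 3 of 10 members, where 18.5% of genes did. They lay below for Hmga2, where 13.0% did. At 36, 72 and 120 h R07 was above all 20 withdrawal libraries for Sox4, Hlf, Trib2, Angpt1 and Gas6, 5 members, where 3.90% of genes were. With the time course known when the genes were picked, nothing is read from these member counts beside the shares of all genes.

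In the list of 24 other stem and progenitor genes, 20 were tested with R07 against withdrawal, and 8 were higher, 2 lower and 10 not called. Mycn (log2 7.44 ± 0.80, adjusted p = 0.00118) and the cytokine receptor gene Flt3 (log2 6.37 ± 0.54, adjusted p = 5.21e-04) had the largest positive log2 differences among the called genes of the list. Mycn had 1.99, 4.61, 6.74 and 9.54 CPM with R07 and at most 0.110 CPM in withdrawal libraries of the same times. Prom1 (log2 -7.51 ± 1.18, adjusted p = 0.00450) and Fli1 (log2 -0.73 ± 0.17, adjusted p = 0.0206) were the 2 lower with R07, and Erg the smallest of those higher (log2 1.33 ± 0.31, adjusted p = 0.0215). Kit, the receptor of Stem Cell Factor (log2 2.30 ± 0.64, adjusted p = 0.0377), and the HoxA9 partner Meis1 (log2 2.68 ± 0.34, adjusted p = 0.00200), picked after their values were seen, were also higher with R07. Within withdrawal 6 of the 20 rose and 10 fell between 4 and 24 h, 6 rose and 7 fell between 24 and 72 h, and 5 rose and 7 fell between 72 and 120 h. Of 16 relatives of the other members 13 were tested, and Ikzf3, the Ikaros-family gene Aiolos, alone was called, lower with R07 (log2 -4.89 ± 0.97, adjusted p = 0.0110). Between 72 and 120 h of withdrawal 12 of the relatives were tested, 3 rose (Nfil3, Trib1 and Trib3), 6 fell (Ikzf3, Ikzf5, Hmga1, Mybl1, Mybl2 and Sox12) and 3 were not called.

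Across the 14 conditions, as Pearson correlations of log2 CPM given without a p because the conditions lie on shared time courses, the 45 pairs of members had a median of 0.69. Cd34 with Sox4 had 0.97, Trib2 with Angpt1 0.97 and Hlf with Trib2 0.96, and Hmga2 with Hgf had the lowest, -0.39. Among 8505 genes, the one most like Cd34 was Serpinf1 (0.99), like Sox4 Prkca (0.99), like Hlf Runx2 (0.98), like Myb Spry2 (0.98), like Trib2 Mllt3 (0.98), like Hmga2 Rai14 (0.98), like Angpt1 Slc45a3 (0.98) and like Gas6 Angptl2 (0.96). Ikzf2 came closest to Papss2 (0.94) and Hgf to Fam122a (0.86). Of the 3 most alike genes of each member, 30 in all, 8 came up again with Spearman correlation and 7 over the withdrawal times alone.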

How the data were processed

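The deposited table holds raw, unnormalized read counts per gene for 24 libraries made with an oligo-dT, strand-preserving kit from 200 ng of RNA and read as 101 base pairs from both ends, per the labels' protocols. Reads were handled with STAR 2.4.2a and Picard on mm10, per the submitters' processing notes; the counting program, its strand setting and the annotation release are not given in the sources used here. Of 45323 lines 4 name no gene and were left out of library sizes; 82.7 to 85.7% of reads were in genes, 6.23 to 8.72% mapped to several places, 3.88 to 6.48% lay outside genes, 1.53 to 2.29% were unmapped and 1.08 to 1.25% ambiguous.

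The 10 genes, the lists of related genes and the comparisons were chosen with earlier results of these data known. Counts were filtered with filterByExpr, scaled by TMM and compared by quasi-likelihood tests of edgeR 4.0.16 under R 4.3.3 with limma 3.58.1, with p-values adjusted over all genes by Benjamini-Hochberg. One fit with a term for each time took in the 20 withdrawal libraries; R07 was fitted with the 8 withdrawal libraries of its 4 times, so its spread also holds any change of the difference with time. In simulated counts of 10961 genes, 186 of 200 changed genes were recovered for 24 h against 4 h, 200 for R07 against withdrawal and 196 where R07 was set against 0 h. False calls were 5, 12 and 11 in the same order. The simulated R07 effect was constant and nothing else changed with time. The recovery therefore does not show how the R07 fits behave where levels change with time, as they do here. DESeq2 1.42.0, other scaling, no filter, 1 fit of all libraries, a block on the column letter and leaving out each library were the alternatives.

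Named are the 10 genes; every called gene of a list of up to 16 where a result turns on it, otherwise the 3 highest and 3 lowest called, of which 1 is not reported here; and for each of the 10 the 3 genes of highest correlation among those with a mean log2 CPM (prior count 2) of at least 3, of which the first is printed. Columns carry the letters A and B, which the labels do not tie to their replicate numbers. The A minus B differences of 2 times correlated above 0.1 in 7 of 45 pairs of times (-0.16 to 0.21), so the letters were not taken to pair libraries. The variance between A and B was 5.63 to 43.6 times that of counting error, as chi-square per degree of freedom at each time. Exon lengths and positions come from GENCODE vM21 on GRCm38 (the assembly of mm10).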

Additional observations from a re-analysis of the deposited data

How the results depend on the processing

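The direction of every member's change was the same under each alternative run in the comparisons of withdrawal times, except that of Trib2 at 120 h against 72 h, which ranged from -0.4522 to 2.0253 with 1 library left out and rests on few reads. In R07 against withdrawal no member turned round. With 1 library left out, 4 h against 0 h gave 815 to 1905 called genes (1717 with all libraries), and R07 against withdrawal gave 1025 to 3988 genes and 3 to 8 members (2469 and 7 with all). Against 0 h, Hmga2 at 4 h passed no fit that left out 1 of the 4 libraries concerned, Sox4 passed only one of these fits, that without 4 h library B, and Hgf at 120 h did not pass without 120 h library A. DESeq2 called 4122 genes in R07 against withdrawal and Myb as an eighth member. One fit of all 24 libraries, which takes the spread from replicates alone, called 9718 genes and all 10 members. For R07 against 0 h, edgeR called 0 genes; without the filter it called 31, DESeq2 called 1326 genes and 3 members, and the fit of all 24 libraries called 6925 genes and 6 members. Leaving out 1 library gave 0 to 2256 genes and 0 to 4 members there, the most without R07 at 12 h. Small differences from 0 h turned round: Cd34 ranged from -0.238 to 0.0421, Myb from -0.0972 to 0.1379 (0.0016 in the fit of all libraries) and Ikzf2 from -0.0303 to 0.6056. The causes of these shifts were not tested. A replicate block on the column letter gave 1831 called genes at 4 h against 0 h and 5315 at 24 h against 4 h (5177 without it) and changed no call of a member; the letters share only a name. R07 has 1 library per time and was not tested at single times, and few reads lie behind Trib2 from 72 h of withdrawal (1 to 6 a library), Gas6 at 48 and 72 h (5 to 16), Sox4 at 120 h (10 and 15) and Angpt1 at 72 h (32 and 43).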

Other observations

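Some related genes rose at the end of withdrawal, when most of the 10 genes were low; they were picked after their values were seen. Ly6a, which encodes the mouse stem cell antigen Sca-1, had 44.8 and 42.8 CPM at 120 h, against 0.122 and 0.216 CPM at 72 h (log2 7.99 ± 0.34, adjusted p = 5.41e-14 by edgeR), and at most 0.113 CPM in any R07 library. Spint1, an inhibitor of the proteases that activate Hgf, rose as well (log2 3.43 ± 0.68, adjusted p = 1.79e-04 by edgeR). Its levels were low, with 0.526 and 1.14 CPM at 120 h against 0.0487 and 0.0959 CPM at 72 h. Angpt2, a relative of Angpt1, had 1.02 and 2.03 CPM at 120 h, against 0.0243 and 0.0480 CPM at 72 h (log2 5.26 ± 0.72, adjusted p = 1.93e-06). Summed macrophage markers were at their highest at that time, and their part in these rises was not tested.

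Cebpa, whose protein Trib2 helps to break down, had 112, 265, 315 and 289.6 CPM with R07 at 12, 36, 72 and 120 h. In withdrawal it had 142 and 139 CPM at 0 h, 295 and 285 at 8 h, 86.0 and 90.8 at 72 h and 43.0 and 35.5 at 120 h, with a fall between 24 and 72 h (log2 -1.33 ± 0.10, adjusted p = 3.99e-10) and between 72 and 120 h (log2 -1.17 ± 0.10, adjusted p = 2.53e-09). With R07 against withdrawal it was not called (log2 1.32 ± 0.51, adjusted p = 0.105). Protein levels were not measured.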
